A study of Mus musculus with 6 samples.

Results

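The genes described here are a hand-picked set of 43 genes of cell division, made up of cyclins, cyclin-dependent kinases, mitotic and DNA replication genes, checkpoint genes and kinase inhibitors. A gene was measured where the platform annotation gave a probe set that symbol and no other. This left 42 of the 43 among 12393 named genes, and Ccnb1 was not analysed here. By role, 8 belong to G1, 12 to S phase, 19 to mitosis and 3 are inhibitors. The livers came from wild-type mice of the C57 background at 1 month of age, with 1 array per mouse. In the treated group, 3 livers had received an adenoviral vector to overexpress TFEB, a transcription factor of lysosomal and autophagy genes, and the 3 control livers had received no injection. No empty-vector liver is among the groups, so effects of injection, virus and TFEB cannot be told apart. The labels give neither the promoter of the vector, its dose, the time between injection and harvest nor the sex of the mice. They call the arrays biological replicates.

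A dividing cell passes from G1 to S phase when D-type cyclins with CDK4 and E-type cyclins with CDK2 inactivate the retinoblastoma protein and release E2F factors. E2F then drives the genes of DNA synthesis, and a later wave of genes, driven through FOXM1 and B-MYB, builds the spindle, condenses chromosomes and triggers mitosis through CDK1 and its A- and B-type cyclins. Inhibitors such as p21, p27 and p18 hold these kinases in check, and p21 is a classic target of p53. Hepatocytes of an adult liver seldom divide, whereas those of a young mouse still do so and become polyploid by cycles without cell separation.

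Promoter sequences of 34 of the 42 measured genes were found in a RefSeq table of GRCm38.p6, each running from 250 bases before to 50 bases after the first-listed transcription start. They were searched on both strands for CCAAT, the core of the site of the factor NF-Y, and for TTTGAA, the cell cycle genes homology region (CHR) that a repressor and activator complex of mitotic genes binds. They were also searched for variants of the E2F site, which were TTCCCGC or its variant TTGGCGC, and TTCGCGC with its variant TTGCCGC. The last motif was CACGTG, the E-box that TFEB, MYC and related factors bind. The 4 called genes with the smallest p among those with a promoter entry are shown first, so that the sequences of genes that rose (Mad2l1, Nusap1 and Ccnb2) can be set beside that of a gene that fell (Tk1). Matches are in capitals, a match on the opposite strand appearing as its reverse complement (ATTGG for CCAAT), and in the sequences shown no match overlapped another.
Mad2l1, plus strand of chr6:66534971-66535270: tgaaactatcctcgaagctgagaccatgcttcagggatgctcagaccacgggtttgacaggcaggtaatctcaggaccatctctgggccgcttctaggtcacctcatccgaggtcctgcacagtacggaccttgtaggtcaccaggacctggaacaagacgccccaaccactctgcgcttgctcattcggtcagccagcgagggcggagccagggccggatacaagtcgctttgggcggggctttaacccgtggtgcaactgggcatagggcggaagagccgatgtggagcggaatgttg
Nusap1, plus strand of chr2:119618048-119618347: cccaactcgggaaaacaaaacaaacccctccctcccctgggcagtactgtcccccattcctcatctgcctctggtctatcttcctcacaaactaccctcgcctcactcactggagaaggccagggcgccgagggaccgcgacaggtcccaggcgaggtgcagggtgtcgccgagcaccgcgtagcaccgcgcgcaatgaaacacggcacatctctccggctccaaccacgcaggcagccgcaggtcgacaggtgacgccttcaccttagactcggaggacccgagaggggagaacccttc
Tk1, minus strand of chr11:117825965-117826264: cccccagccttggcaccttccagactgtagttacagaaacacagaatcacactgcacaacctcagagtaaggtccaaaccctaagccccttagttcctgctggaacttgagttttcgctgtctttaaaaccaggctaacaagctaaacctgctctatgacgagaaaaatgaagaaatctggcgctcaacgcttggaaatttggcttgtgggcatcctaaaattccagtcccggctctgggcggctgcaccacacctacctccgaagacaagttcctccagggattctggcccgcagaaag
Ccnb2, minus strand of chr9:70421505-70421804: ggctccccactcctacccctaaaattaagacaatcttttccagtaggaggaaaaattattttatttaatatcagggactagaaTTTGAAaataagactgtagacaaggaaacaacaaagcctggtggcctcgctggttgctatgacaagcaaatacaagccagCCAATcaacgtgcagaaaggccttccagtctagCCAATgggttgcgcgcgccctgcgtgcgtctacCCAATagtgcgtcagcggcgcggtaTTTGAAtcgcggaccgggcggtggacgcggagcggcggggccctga
Ccnb2 held 3 CCAAT and 2 TTTGAA matches, while Mad2l1, Nusap1 and Tk1 held none of the 4 motifs in this window. A pair of other genes was added after the matches had been seen. Cdk1, whose difference did not pass the test, is shown because its promoter carries matches to all of the motifs except the E-box. Cdk4, which rose, is shown for its E-boxes.
Cdk1, minus strand of chr10:69352863-69353162: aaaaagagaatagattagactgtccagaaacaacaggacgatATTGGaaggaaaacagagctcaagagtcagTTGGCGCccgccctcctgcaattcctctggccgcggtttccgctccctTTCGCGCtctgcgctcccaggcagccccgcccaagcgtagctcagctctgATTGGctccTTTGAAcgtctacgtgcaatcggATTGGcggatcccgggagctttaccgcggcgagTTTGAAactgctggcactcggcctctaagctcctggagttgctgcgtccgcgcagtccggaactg
Cdk4, plus strand of chr10:127063285-127063584: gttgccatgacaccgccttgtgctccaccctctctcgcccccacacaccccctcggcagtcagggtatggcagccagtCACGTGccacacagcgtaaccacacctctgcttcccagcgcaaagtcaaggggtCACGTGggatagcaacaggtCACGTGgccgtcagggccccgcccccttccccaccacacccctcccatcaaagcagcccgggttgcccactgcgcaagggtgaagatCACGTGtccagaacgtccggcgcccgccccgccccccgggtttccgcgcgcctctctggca
Cdk1 held 3 CCAAT, 2 TTTGAA and 2 E2F matches. Cdk4 held 4 CACGTG matches and none of the others, and 8 of all 32851 promoter entries (0.0244%) held at least 4. Of the 15 mitosis genes with a promoter, 12 held CCAAT and 11 held TTTGAA, against 37.4% and 17.9% of all promoter entries. Among the first-listed promoters of 9882 genes on the array, chosen like those of the cell cycle genes, the shares were 38.1% and 13.0%. Both motifs stood together in 11 of the 15, in 6.95% of all entries and in 5.16% of the first-listed promoters. Of the 11 S phase genes with a promoter, 7 held an E2F variant, against 9.57% of all entries and 15.05% of the first-listed promoters. CACGTG stood in 2 of the 34 promoters, those of Cdk4 and Tyms, in 7.15% of all entries and in 9.33% of the first-listed promoters. Among genes with a promoter, CCAAT stood in 3 of the 8 that rose, 2 of the 3 that fell and 17 of the 23 that did not pass. TTTGAA stood in 1 of the 8, 1 of the 3 and 10 of the 23. A link between these motifs and the differences was not tested. A match is a string of letters and not a shown binding site.

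The values are log2 expression per probe set, and each difference is the injected mean less the not-injected mean, given with the standard error (SE) of a limma fit across all 12393 genes. A gene was called at a Benjamini-Hochberg adjusted p under 0.05. Over all named genes 28.1% were called, 14.2% higher and 13.9% lower in injected livers. The only probe set of Tfeb read 7.50, 7.59 and 7.47 in the not-injected livers and 7.48, 7.78 and 7.46 in the injected livers (0.05 ± 0.10, limma adjusted p = 0.716), and whether it can detect the transgene is not known. Of 9 measured hepatocyte markers 0 were called by limma, with 3 lower at an unadjusted p under 0.05, and their mean levels were high, at 14.37 to 14.38 without and 14.27 to 14.31 with injection. The labelling and hybridisation controls also differed, the median of 18 hybridisation spike-in probe sets being -0.32 and that of 24 poly-A spike-in probe sets -0.44, injected minus not injected. The not-injected arrays correlated with each other at 0.997 to 0.998 over probe sets, and the injected arrays at 0.991 to 0.997. In whole liver, a change in the number of dividing cells and a change in transcript per cell cannot be told apart.

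Of the 42 measured genes 9 rose (21.4%), 3 fell (7.14%) and 30 did not pass, which stands beside 14.2% and 13.9% of all genes. The genes that rose were Ccnb2, Mad2l1, Nusap1 and Birc5 of mitosis, Rrm1 and Pcna of S phase, Cdk4 and Ccne2 of G1, and the inhibitor Cdkn2c. Tk1, Cdk2 and Cdc20 were called lower, and Cdc20 rests on 1 of 3 probe sets that did not point the same way. The median difference of the set was 0.14, and that of all genes was -0.05. Every difference in the set lay between -0.52 and 0.88, which is less than 2-fold either way, although the differences of Ccnb2, Birc5, Cdkn1a and Mki67 were 1.04, 1.05, 1.19 and 1.04 without injected replicate 2. Rises of at least 1.5-fold were called in 4 genes, all mitotic (6.3% of all genes), and no fall reached that size (3.3% of all genes). The livers did not overlap in 15 genes that were higher with injection and in 5 that were lower, against 20.1% and 26.1% of all genes. The count of rises changed with single livers. It was 15 without injected replicate 2, and 5 without not-injected replicate 2 or without not-injected replicate 3. Over all genes the rises numbered 2149, 1036 and 1096 in the same fits, in that order, against 1765 with all livers. The falls of the set numbered 1 without not-injected replicate 2, not-injected replicate 3 or injected replicate 3. Those over all genes numbered 937, 936 and 1078, against 1721.

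**Figure D1:**
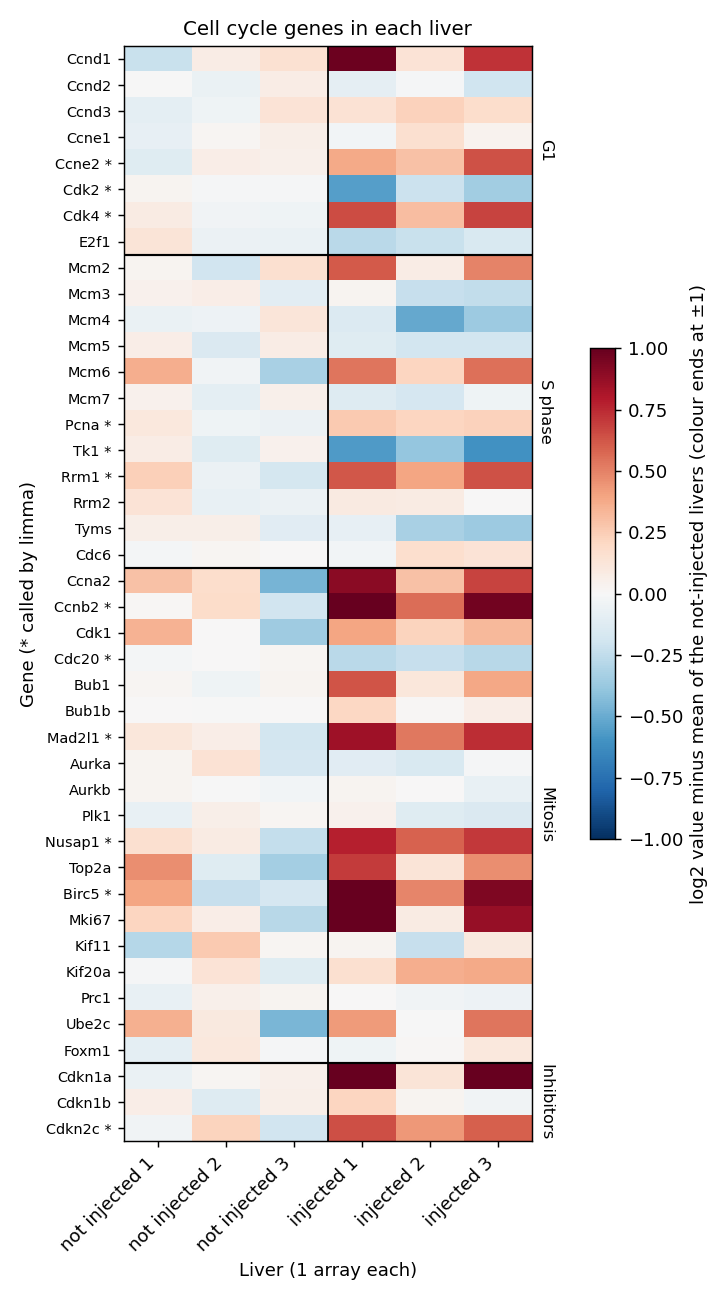
Each row is 1 of the 42 measured cell cycle genes, grouped by role, and each column is 1 liver. Colour gives the log2 value minus the mean of the 3 not-injected livers of that gene, with the colour scale ending at 1 in each direction, and an asterisk marks the 12 genes called by limma. Among the injected livers, replicate 2 is the palest for Ccnd1, Mki67, Ccna2 and Cdkn1a.

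The mitosis genes held the largest rises. Of the 19 measured, 4 rose (21.1%, against 14.2% of all genes), 1 fell (5.26%, against 13.9%) and 14 did not pass. A positive difference was found in 13 of the 19, and the median was 0.31. Without not-injected replicate 3 the median was 0.14, and without injected replicate 2 the rises numbered 7. Rises over all genes numbered 2149 in the latter fit, against 1765 with all livers. Ccnb2 encodes cyclin B2, a partner of CDK1 at entry into mitosis. It read 5.92, 6.09 and 5.72 in not-injected livers and 7.03, 6.47 and 6.87 in injected livers. The groups were apart, and the rise was 1.84-fold (0.88 ± 0.16, limma adjusted p = 0.00647). Mad2l1 encodes MAD2, the spindle checkpoint protein that delays anaphase until chromosomes are attached. It read 7.85, 7.81 and 7.55 without injection and 8.58, 8.26 and 8.48 with it. Every injected liver lay above every control, and the rise was 1.63-fold (0.70 ± 0.11, limma adjusted p = 0.0043). Nusap1 encodes a protein that bundles spindle microtubules. It read 5.44, 5.36 and 5.04 without injection and 6.06, 5.87 and 5.99 with it. It rose 1.61-fold with groups apart, although the controls all lay below 5.46, the lowest of the arrays' lower quartiles (0.69 ± 0.11, limma adjusted p = 0.00462). These 3 genes passed in each of the 6 fits that left out 1 array.

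Birc5 encodes survivin, a subunit of the chromosomal passenger complex with Aurora B. It read 5.79, 5.16 and 5.22 in not-injected livers and 6.55, 5.88 and 6.32 in injected livers. Not-injected replicates 2 and 3 lay below 5.46, the lowest of the arrays' lower quartiles. The groups were apart by little, since not-injected replicate 1 lay close below injected replicate 2, and the rise was 1.82-fold (0.86 ± 0.21, limma adjusted p = 0.0224). It lost its call without not-injected replicate 2, not-injected replicate 3, injected replicate 1 or injected replicate 3, and its adjusted p ran from 0.0031 to 0.118 over all alternatives. Cdc20 encodes the activator of the anaphase-promoting complex. Its probe set with the highest mean read 7.78, 7.80 and 7.81 without injection and 7.53, 7.57 and 7.52 with it. These values were lower in all 3 injected livers (-0.26 ± 0.06, limma adjusted p = 0.0155), but its other 2 probe sets read 0.56 ± 0.23 and 0.25 ± 0.11, and the mean of all 3 was 0.18 (adjusted p = 0.266). The direction of Cdc20 is therefore not settled.

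Several mitosis genes that did not pass had wide spread among the injected livers. Mki67, which encodes the proliferation antigen Ki-67, read 6.19, 6.04 and 5.70 in not-injected livers and 7.17, 6.06 and 6.85 in injected livers. Injected replicate 2 lay inside the control range, and the difference was 0.72 ± 0.27 (limma adjusted p = 0.0854). Without that liver it was 1.04 (adjusted p = 0.00236), the range over all alternatives being 0.00236 to 0.235. Ccna2, which encodes the cyclin A2 of S phase and mitosis, read 7.07, 6.95 and 6.32 without injection and 7.68, 7.07 and 7.46 with it (0.62 ± 0.22, limma adjusted p = 0.0745). The livers were apart, but injected replicate 2 and not-injected replicate 1 both read 7.07. Bub1, a checkpoint kinase, differed by 0.38 ± 0.12 (limma adjusted p = 0.058), but all 6 arrays lay below 5.46, the lowest of the arrays' lower quartiles. Kif20a, a kinesin of cytokinesis, differed by 0.30 ± 0.09 (limma adjusted p = 0.0504).

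The rest of the mitosis genes differed by less or varied more. Top2a, the topoisomerase that untangles chromosomes, read 0.43 ± 0.22, the ubiquitin-conjugating enzyme gene Ube2c 0.32 ± 0.22 and the mitotic kinase gene Cdk1 0.31 ± 0.16. In Cdk1 not-injected replicate 3 read 6.47, below the other controls at 7.16 and 6.82, while injected livers read 7.21, 7.04 and 7.14. Differences near 0 were found for the master kinase genes Plk1 (-0.07 ± 0.08), Aurka (-0.09 ± 0.09) and Aurkb (-0.01 ± 0.06). Foxm1, which encodes the transcription factor of the mitotic wave, read 0.02 ± 0.08. Prc1 of the central spindle read -0.03 ± 0.06, the spindle motor gene Kif11 -0.04 ± 0.15 and the checkpoint kinase gene Bub1b 0.10 ± 0.07. Aurkb, like Bub1, lay below 5.46 on every array.

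**Figure D2:**
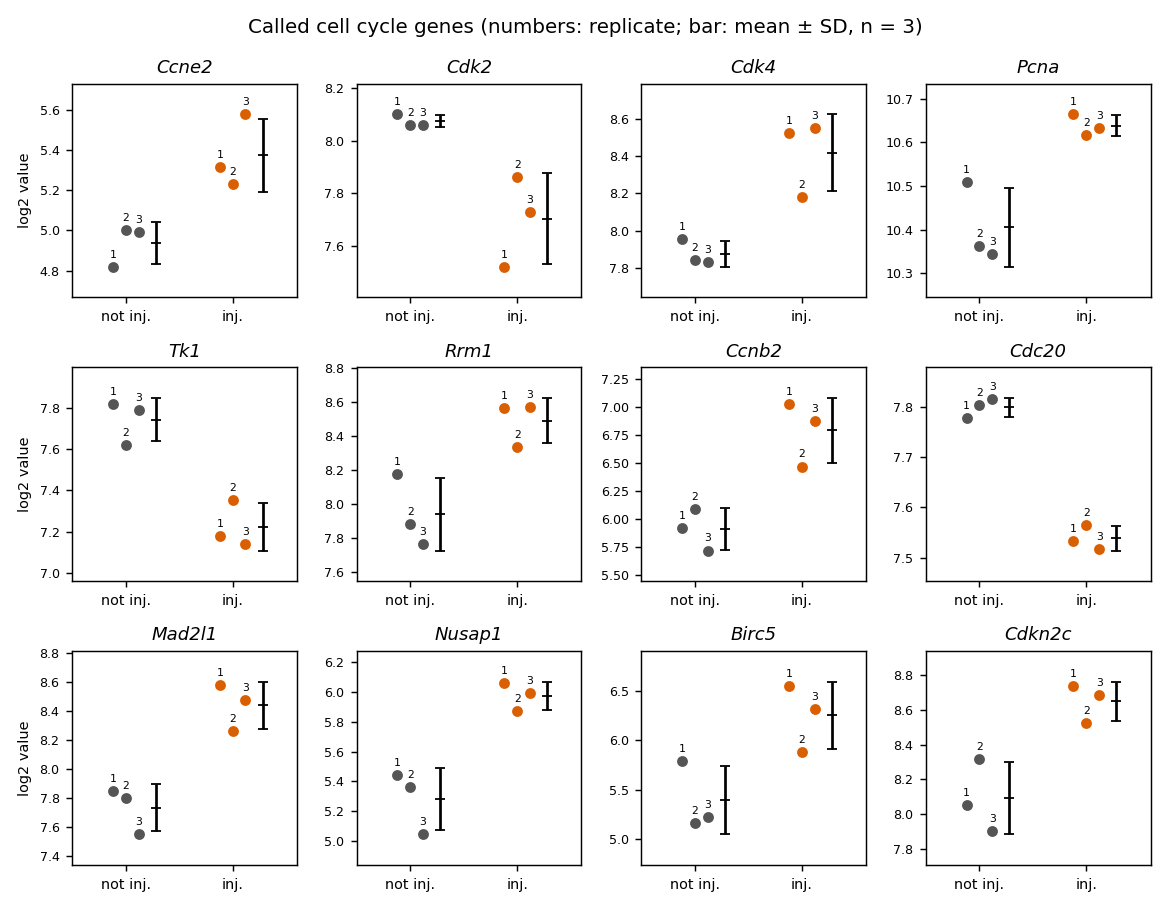
Each panel shows 1 of the 12 called cell cycle genes, with the log2 value of every liver (grey not injected, orange injected, numbered by replicate) and the mean ± SD of each group (n = 3). Axes differ between panels and do not start at 0, and in all 12 panels the livers of the groups are apart.

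S phase genes moved in both directions and their median lay near that of all genes. Of 12 measured, 2 rose (16.7%, against 14.2% of all genes), 1 fell (8.33%, against 13.9%) and 9 did not pass. A positive difference was found in 6 of the 12, and the median was -0.03. The rises numbered 0 by limma without not-injected replicate 2, not-injected replicate 3 or injected replicate 1, 1 without injected replicate 3, and 3 when not-injected replicate 1 or injected replicate 2 was left out. The falls numbered 3 without injected replicate 1. With all livers, 4 of the 12 were higher and 3 were lower at an unadjusted p under 0.05. Tk1 encodes the thymidine kinase that salvages thymidine for DNA synthesis. It read 7.82, 7.62 and 7.79 in not-injected livers and 7.18, 7.35 and 7.14 in injected livers. Every injected liver was below every control, by 0.52 in the mean (-0.52 ± 0.09, limma adjusted p = 0.00513), and it passed in all 6 fits that left out 1 array. This difference is near the poly-A spike-in median of -0.44, and the part of labelling in it was not tested. Rrm1 encodes the large subunit of ribonucleotide reductase, which makes deoxynucleotides. It read 8.17, 7.88 and 7.76 without injection and 8.56, 8.34 and 8.57 with it, with groups apart (0.55 ± 0.12, limma adjusted p = 0.0141). Its second probe set rose too (0.78 ± 0.14), but the call was lost without not-injected replicate 2, not-injected replicate 3 or injected replicate 1 (adjusted p from 0.0029 to 0.0802 over all alternatives). Rrm2, which encodes the small subunit of the same enzyme, read 7.85, 7.65 and 7.66 against 7.81, 7.80 and 7.72 (0.06 ± 0.08, limma adjusted p = 0.606).

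Pcna encodes the sliding clamp of DNA polymerases. It read 10.51, 10.36 and 10.34 without injection and 10.66, 10.62 and 10.63 with it. The groups were apart but close (0.23 ± 0.07, limma adjusted p = 0.0415), and the call held in 7 of 15 alternatives. It was lost without not-injected replicate 2, not-injected replicate 3, injected replicate 1 or injected replicate 3, when arrays were centred on their median (adjusted p = 0.108), with a second quantile normalisation (0.0565), with the replicate number as a block (0.0564) and without variance moderation (0.0641). The 6 subunits of the MCM helicase, which opens DNA at origins and works as a hexamer of 1 copy each, did not share a direction. Mcm6 (0.43 ± 0.18) and Mcm2 (0.40 ± 0.15) had positive differences, and Mcm4 (-0.34 ± 0.11), Mcm5 (-0.16 ± 0.08), Mcm3 (-0.15 ± 0.09) and Mcm7 (-0.12 ± 0.07) negative ones, none of which passed. Only Mcm4 kept its livers apart, with 7.65, 7.66 and 7.84 against 7.58, 7.20 and 7.35 (limma adjusted p = 0.053). The thymidylate synthase gene Tyms read -0.26 ± 0.09 and the origin licensing gene Cdc6 0.09 ± 0.07, and like Mcm5 both lay below 5.46 on every array.

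G1 genes were also divided. Of 8 measured, 2 rose (25%, against 14.2% of all genes), 1 fell (12.5%, against 13.9%) and 5 did not pass, with a median of 0.12. The rises numbered 1 when a not-injected liver was left out and 3 without injected replicate 2, and the fall was kept by limma in that last fit alone. Cdk4 encodes the kinase partner of D-type cyclins. It read 7.95, 7.84 and 7.83 in not-injected livers and 8.53, 8.18 and 8.55 in injected livers. The groups were apart, the rise was 1.46-fold (0.54 ± 0.11, limma adjusted p = 0.00994), and it passed in all 6 fits that left out 1 array. Its other 2 probe sets rose as well, by 0.88 ± 0.16 and 0.42 ± 0.08. Cdk2, which encodes the kinase partner of E-type cyclins, read 8.10, 8.06 and 8.06 without injection and 7.52, 7.86 and 7.73 with it. Every injected liver was lower (-0.37 ± 0.09, limma adjusted p = 0.0233), and of the 6 fits that left out 1 array the call was kept in 1, that without injected replicate 2. Cdk2 stood close to the spike-in medians of -0.32 and -0.44, and their part in it was not tested.

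Among the E-type cyclins, Ccne2 read 4.82, 5.0 and 4.99 without injection and 5.32, 5.23 and 5.58 with it. It was called higher (0.44 ± 0.10, limma adjusted p = 0.0203), with 5 of 6 arrays below 5.46, and lost its call whenever a not-injected array was left out. Ccne1 read 0.06 ± 0.08. Of the D-type cyclins, Ccnd1 had the largest difference. It read 9.57, 9.87 and 9.94 in not-injected livers and 10.77, 9.93 and 10.52 in injected livers, where replicate 2 again lay within the control range (0.61 ± 0.21, limma adjusted p = 0.0643). Its other 2 probe sets read 0.44 ± 0.18 and 0.44 ± 0.16. Without injected replicate 2 the difference was 0.85 (adjusted p = 0.00239, in a range of 0.00239 to 0.197 over all alternatives). Ccnd3 read 0.18 ± 0.08 and Ccnd2 -0.10 ± 0.08, and all 7 probe sets of Ccnd2 had negative differences. E2f1, which encodes the founding E2F factor, read -0.22 ± 0.08 (limma adjusted p = 0.0749).

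Of the 3 inhibitors 1 rose (33.3%, against 14.2% of all genes). Cdkn2c encodes p18, which binds CDK4 and CDK6. It read 8.05, 8.32 and 7.90 in not-injected livers and 8.74, 8.52 and 8.69 in injected livers. The groups were apart, the rise was 1.47-fold (0.56 ± 0.12, limma adjusted p = 0.0114), and it passed in all 6 fits that left out 1 array. Cdkn1a encodes p21. It read 7.90, 7.99 and 8.02 without injection and 9.28, 8.10 and 9.04 with it. All injected livers were higher, but replicate 2 only just, and the difference of 0.84 ± 0.27 did not pass (limma adjusted p = 0.0563). Without that liver it was 1.19 (adjusted p = 9.13e-05, in a range of 9.13e-05 to 0.189 over all alternatives). Its second probe set read 0.78 ± 0.27. Cdkn1b, which encodes p27, read 0.07 ± 0.09.

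**Figure D3:**
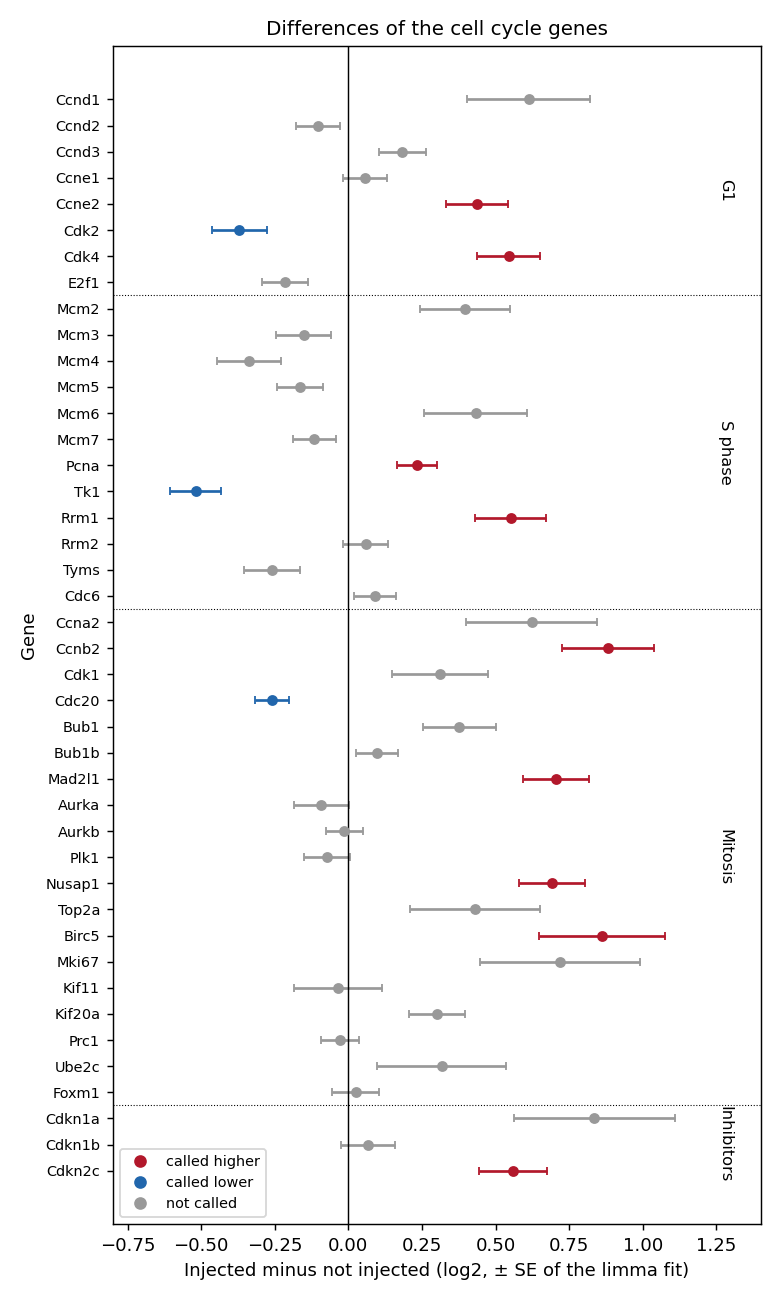
The horizontal axis gives the difference of injected minus not-injected livers on the log2 scale, with the SE of the limma fit, for the 42 measured genes grouped by role. Red points are the 9 called higher, blue points the 3 called lower and grey points the 30 that did not pass, with S phase genes on either side of 0.

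The spread between livers was shared by many of the mitosis genes. Injected replicate 2 was the lowest of the injected livers in 13 of the 19 mitosis genes (68.4%), against 33.9% of all genes. Among 47 other mitosis genes it was the lowest in 28 (59.6%), among 18 p53 targets in 11 (61.1%) and among 8 stellate cell and fibroblast markers in 6 (75%). In S phase that liver was the lowest in 6 of the 12 listed genes (50%) and in 11 of 41 others (26.8%). In G1 the counts were 3 of the 8 listed genes (37.5%) and 7 of 22 other G1 to S regulators (31.8%). In the controls, not-injected replicate 3 was the lowest in 11 of the 19 mitosis genes (57.9%) and in 27 of the 47 other mitosis genes (57.4%), against 31.7% of all genes. The same control was lowest for 8 of 11 macrophage markers. The part of these cells in the spread was not tested. Genes of a shared programme are not independent of each other, so these counts describe single mice.

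Of the measured genes, 23 had more than 1 probe set, and the differences of all probe sets were positive in 8 genes (Cdk4, Rrm1, Cdkn1a, Ccnd1, Mcm2, Mcm6, Ccna2 and Bub1) and negative in 7 (Ccnd2, Mcm7, Tyms, Mcm4, E2f1, Prc1 and Aurkb). In the other 8 the probe sets had both signs. The probe sets of Nusap1 differed, the second reading -0.02 ± 0.12 with a mean of 4.24 over the arrays, below the lower quartile of every array. Mcm3 had 5 probe sets from -0.35 to 0.20, of which 1 was called (-0.35 ± 0.07, limma adjusted p = 0.0121). The second probe set of Top2a read -0.17 ± 0.14.

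**Figure D4:**
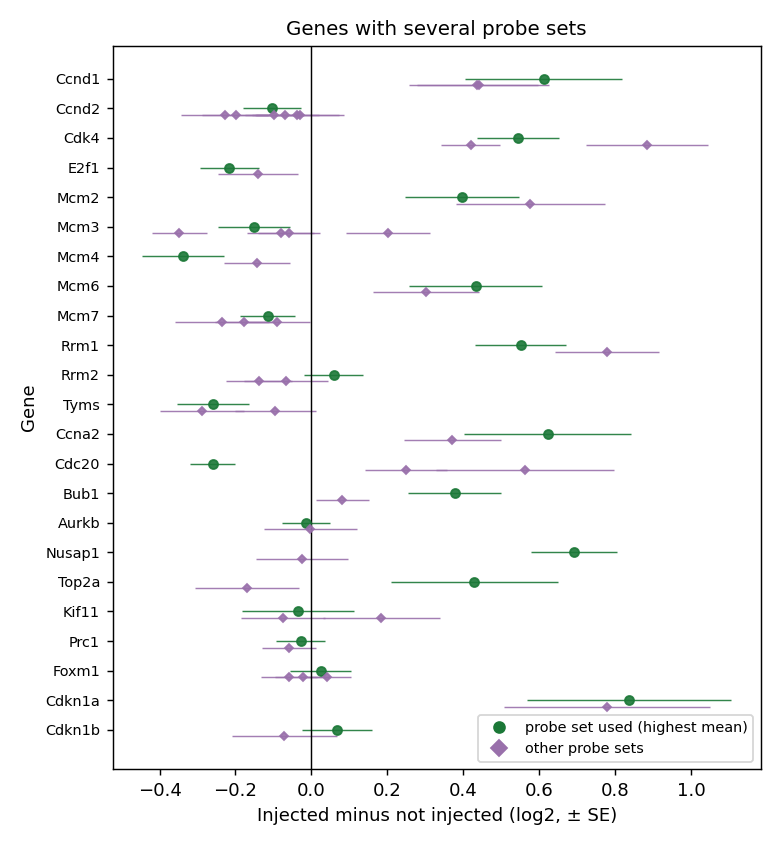
For the 23 genes with several probe sets, the horizontal axis gives the log2 difference of injected minus not-injected livers (± SE) of every probe set. Circles mark the probe set used, which is that with the highest mean, and diamonds the others, so that Cdc20 shows a circle at -0.26 and diamonds at 0.25 and 0.56.

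Other genes of the pathway came from textbook lists, which were chosen with earlier results of these data known. Of 47 other mitosis genes 11 rose (23.4%, against 14.2% of all genes) and 2 fell (4.26%, against 13.9%), with a median of 0.15. Trip13, which encodes an ATPase that disassembles the MAD2 checkpoint complex, rose by 0.81 ± 0.10 (limma adjusted p = 0.00197), with 2 of 6 arrays below 5.46. The F-type cyclin gene Ccnf fell by 1.75 (SE 0.15, limma adjusted p = 0.000335) and Incenp, a scaffold of the survivin complex, by 0.53 (SE 0.09, limma adjusted p = 0.00652). The rises in this list numbered 4 without not-injected replicate 2, not-injected replicate 3 or injected replicate 1. They numbered 6 when injected replicate 3 was left out. Of 41 other S phase genes 6 rose (14.6%, against 14.2% of all genes) and 3 fell (7.32%, against 13.9%), with a median of 0.09. The rises numbered 3 without not-injected replicate 2, not-injected replicate 3 or injected replicate 1, and without injected replicate 2 there were 8 rises and 6 falls. The origin licensing factor gene Cdt1 rose by 1.25 ± 0.13 (limma adjusted p = 0.000813) and Dbf4, which encodes the activator of the origin kinase CDC7, by 0.82 ± 0.09 (limma adjusted p = 0.00115). Mcm10, which encodes an initiation factor that is not part of the MCM hexamer, fell by 2.00 (SE 0.32, limma adjusted p = 0.00438).

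Regulators of the G1 to S transition beyond the set had 7 rises (31.8%, against 14.2% of all genes) and 2 falls (9.09%, against 13.9%) among 22 genes, with a median of 0.02. The falls numbered 4 without injected replicate 2. E2f8 encodes an atypical E2F that represses E2F targets and promotes hepatocyte polyploidy. It read 6.60, 6.69 and 6.30 without injection and 8.78, 8.70 and 8.86 with it, a rise of 4.76-fold (2.25 ± 0.11, limma adjusted p = 5.08e-05) with all injected livers far above the controls. Ccng1, a cyclin gene under p53 control, rose 2.02-fold (1.01 ± 0.08, limma adjusted p = 0.000261). The growth factor-induced gene Myc rose 3.66-fold (1.87 ± 0.32, limma adjusted p = 0.00529). Among 12 other brakes on the cycle 5 rose (41.7%, against 14.2% of all genes) and 0 fell by limma, with 2 lower at an unadjusted p under 0.05. The rises numbered 3 without not-injected replicate 2 or not-injected replicate 3, and 2 falls were called when arrays were centred on their median. Gadd45g rose 3.5-fold (1.81 ± 0.36, limma adjusted p = 0.0104), Wee1, which encodes a kinase that inhibits CDK1, 1.48-fold (0.57 ± 0.10, limma adjusted p = 0.00613) and the stress gene Gadd45b 1.39-fold (0.48 ± 0.09, limma adjusted p = 0.00894).

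Textbook targets of p53 encode proteins of cycle arrest, repair and cell death. Of 18 measured 12 rose (66.7%, against 14.2% of all genes) and 1 fell (5.56%, against 13.9%), with a median of 0.35. Zmat3 read 6.78, 7.01 and 7.01 in not-injected livers and 8.54, 7.95 and 8.73 in injected livers (1.47 ± 0.19, limma adjusted p = 0.00189). Phlda3 rose by 0.73 ± 0.11 (limma adjusted p = 0.00391). The cell death gene Pmaip1 was called higher by 0.61 ± 0.09 (limma adjusted p = 0.00285), with all 6 arrays below 5.46. Bbc3, which encodes the cell death protein PUMA and was named after its values were seen, fell by 0.44 (SE 0.08, limma adjusted p = 0.00923). The count of rises was 6 without not-injected replicate 2, not-injected replicate 3 or injected replicate 1, and 7 without not-injected replicate 1 or injected replicate 3. Calls over all genes also fell in these fits, to 1973 at the lowest. The p53 list, too, was chosen with earlier results of these data known. Some p53 targets were counted in other lists, among them Cdkn1a, which did not pass, and Ccng1, which rose. The share of rises therefore depends on how genes were placed in lists. The comparison between lists was not tested.

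**Figure D5:**
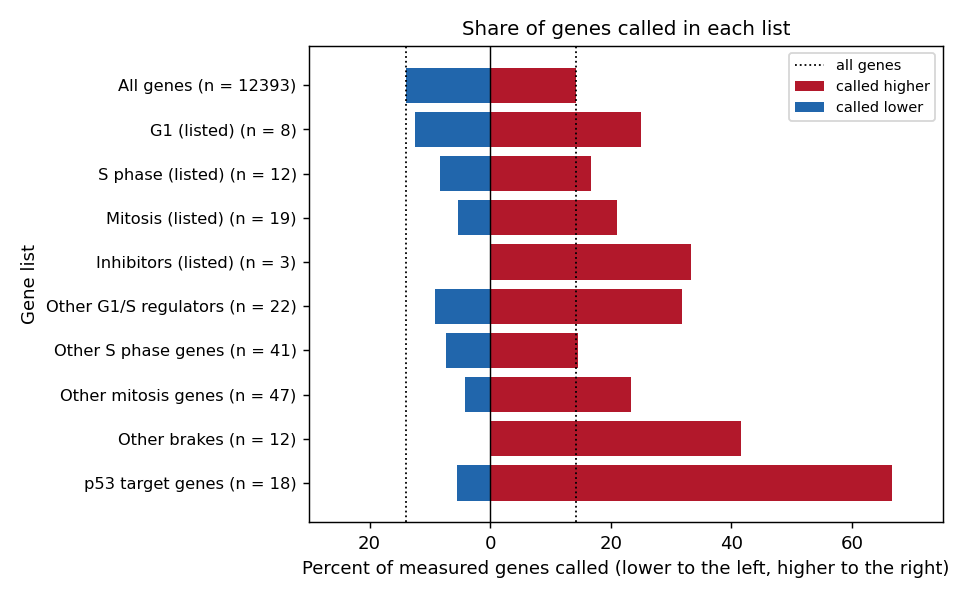
Bars to the right give the percent of measured genes of each list called higher in injected livers and bars to the left the percent called lower, with the number measured beside each name. Dotted lines mark 14.2% and 13.9%, the shares over all genes, and the p53 target list reaches 66.7% on the higher side.

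Markers of liver cells other than hepatocytes were read in 8 lists. Of 61 measured 10 rose (16.4%, against 14.2% of all genes) and 3 fell (4.92%, against 13.9%). Of 11 Kupffer cell and macrophage markers 3 rose and 1 fell, and their mean level was 8.87 to 9.22 in not-injected and 9.38 to 9.52 in injected livers. Those that rose were Cd68, Cd14 and Lyz2, with differences from 0.93 (Lyz2) to 1.74 (Cd68), and Marco fell (-0.795). The macrophage markers that were not called lay between Clec4f (-0.11) and Vsig4 (0.42). Of 8 endothelial markers 4 rose and 0 fell by limma, with mean levels of 8.20 to 8.32 and 8.68 to 8.86. The largest differences were those of Lyve1 (2.10) and Stab2 (0.96), and the others lay between Eng (-0.18) and Pecam1 (0.41). T and NK cell markers had 0 of 10 called by limma and 2 at an unadjusted p under 0.05, both lower, with mean levels of 6.03 to 6.10 and 5.92 to 6.17, and Cd2 and Cd3g below 5.46 on every array. Of 5 B cell markers 2 rose, with mean levels of 5.94 to 6.09 and 6.80 to 6.97, and much of that came from Blnk (3.04 ± 0.15). The other marker that rose was Jchain (0.59). Of 8 neutrophil markers 1 rose, S100a8 (0.74), with mean levels of 6.0 to 6.09 and 6.02 to 6.32. Of 6 erythroid markers 1 fell, with mean levels of 6.70 to 6.77 and 6.26 to 6.51. That marker was Alas2 (-1.60), and the others lay between Slc4a1 (-0.26) and Hba-a1 (-0.02). Of 8 stellate cell and fibroblast markers 1 fell, Reln (-0.38), and 2 were higher at an unadjusted p under 0.05. Mean levels of these markers were 7.92 to 7.93 and 7.78 to 8.46. Of 5 cholangiocyte markers 0 were called by limma and 2 had an unadjusted p under 0.05, with mean levels of 5.62 to 5.65 and 5.53 to 5.90. The values have no true zero, so no marker can be called absent. The part of these cells in the cell cycle differences was not tested.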

How the data were processed

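Expression was measured in 6 mouse livers on Affymetrix arrays, 1 per liver. The authors deposited log2 values per probe set, and the submitters' processing notes name the R package affy and RMA, without versions. RMA equalises probe intensities between arrays, which hides a shift of the whole transcriptome and compresses differences at low levels. Filters are not given in the sources used here.

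Of 22690 probe sets, 64 were controls, 20380 had 1 gene symbol, 691 several and 1555 none. A gene took the probe set with the highest mean over the 6 arrays. Groups were compared with limma 3.58.1 in R 4.3.3 (lmFit and eBayes, two-sided, no covariate, no filter), with Benjamini-Hochberg adjustment over 12393 genes. Plots used matplotlib 3.10.9. Precision is limited by the 6 arrays. The genes and lists were chosen with earlier results of these data known. Values of every liver were given for called genes, and for other cell cycle genes picked after their values were seen, and up to 3 called genes with the smallest p were named in each other list. Alternatives changed the variance model, the filter, the probe set rule, the normalisation, the array weights and the replicate block, and left out each array in turn. In simulated data on 12393 genes, of which 200 were changed, 75% of genes changed by 0.5 and 99% of those changed by 1 (log2) were called. Of these calls 5.43% were false. The simulated errors were independent between genes and of equal spread in both groups, so these rates need not hold for the real arrays.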

Additional observations from a re-analysis of the deposited data

How the results depend on the processing

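Over the 42 genes and all alternatives, 517 of 604 results kept their direction and their side of the threshold, 34 passed only under the alternative, 34 passed only in the reported fit and 19 changed sign. Tk1, Mad2l1 and Nusap1 passed in every alternative that tested them, and Cdk4, Ccnb2 and Cdkn2c in all but the one without variance moderation. Without moderation the genes called numbered 1881, with 2 cell cycle genes higher, 2 mitosis genes higher and 4 p53 targets higher. With a filter at the median level of all genes, where 16 of the 42 were tested, 1 mitosis gene was higher, 0 S phase genes were lower by limma (Tk1 was not tested there) and the S phase median was 0.31. That median was -0.068 when probe sets of a gene were averaged, -0.056 when quantile normalisation was applied again and -0.10 when each array was centred. Centring called 6 genes lower, 3 of them in S phase, and 8 higher, which shifts the split from 9 against 3. The S phase falls numbered 2 after the second quantile normalisation, 2 with array weights and 2 with every probe set. Array weights, which gave injected replicate 2 a weight of 0.40, called 18 genes higher, 9 of them mitotic. The causes of these shifts were not tested.

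When each array was left out in turn, the genes called ran from 1973 to 4378, the cell cycle genes higher from 5 to 15 and lower from 1 to 3, the mitosis genes higher from 3 to 7, the S phase genes lower from 1 to 3 and the p53 targets higher from 6 to 12. The mitosis median ran from 0.14 to 0.39 and the S phase median from -0.05 to -0.01. The p53 counts were added after the data were seen.

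Sign changes were found for Cdc20 (0.18 with the mean of all probe sets) and otherwise for genes with differences near 0. When probe sets were averaged Rrm2 read -0.048, Kif11 0.024, Foxm1 -0.0044 and Cdkn1b -0.0014. When quantile normalisation was repeated Aurkb read 0.034, Kif11 0.013, Foxm1 -0.027 and Cdkn1b -0.0067. After centring Ccne1 read -0.012, Rrm2 -0.0089 and Foxm1 -0.043. With arrays left out Aurkb ran from -0.036 to 0.018, Foxm1 from -0.025 to 0.079, Kif11 from -0.18 to 0.10 and Cdkn1b from -0.0061 to 0.12.

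With the replicate number as a block, 11 cell cycle genes were higher and 3 lower among 3348 genes called. Pcna lost its call there (adjusted p = 0.0564) and Mcm2 (0.0249), Bub1 (0.0442) and Cdkn1a (0.0494) passed. The deviations of same-numbered livers correlated at 0.14, 0.06 and 0.01, and the labels describe separate mice, so the numbers do not pair them.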

Other observations

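Of 140 measured cell cycle and p53 genes outside the set, 10 were called with a difference beyond 0.88, the largest in the set, and 8 of these were higher. They were E2f8, Myc, Gadd45g, Zmat3, Cdt1, Ddb2, Ccng1 and Plk2, with Mcm10 and Ccnf lower. Mcm10 had 2 probe sets that both fell, the first from 10.41, 10.51 and 10.48 to 7.65, 9.10 and 8.65. The second fell by 0.48 ± 0.09, from 5.66, 5.69 and 5.71 to 5.06, 5.36 and 5.19. Its injected values all lay below 5.46, the lowest of the arrays' lower quartiles. Ccnf read 8.39, 8.10 and 8.31 in not-injected and 6.78, 6.56 and 6.21 in injected livers, on a single probe set. Cdt1 had 3 probe sets, of which 2 rose (1.25 ± 0.13 and 0.58 ± 0.07) and 1 did not pass (-0.01 ± 0.07). Its inhibitor geminin, encoded by Gmnn, was also higher, by 0.73 ± 0.13 (limma adjusted p = 0.00683). These genes were singled out after their values were seen.

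Myc and Gadd45g were highest in injected replicate 3, at 9.25 and 10.16, while Mki67 and Ccnb2 were highest in injected replicate 1. Injected replicate 2, which read inside the control range for Mki67 and Ccnd1, read 8.70 for E2f8, close to the other injected livers at 8.78 and 8.86.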
